A study of Homo sapiens with 9 samples.

Results

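Keratins are the intermediate filament proteins of epithelial cells, and their genes were followed here in SW480, a human colorectal cancer line, and in a pair of lines derived from it. The members were all genes of the transcript count table named KRT followed by a number, with or without a final letter A, B or C, and the transcript with the highest total count stood for each gene. This gave 47 of 20878 genes. By class, 5 were keratins of simple epithelia, 15 of stratified epithelia, 16 of the hair shaft and 6 of the hair root sheath, and 5 were placed in none of these. Another 8 keratin genes appeared only in the table of normalised values, each listed at 0 in all libraries.

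The libraries were made from polyadenylated RNA, 3 for each of 3 lines. The group called SW480 was the parental line, which lacks functional APC. The group called CONTROL was line R38.7, SW480 cells that carry the pEF vector alone. The group called APC was line D2.15, SW480 cells that carry pEF-mycAPC, a construct for APC with a myc tag. Both derived lines, but not the parent, were grown in G418, all cells received thioglycerol, hydrocortisone and insulin in their medium, and fewer cells were plated for the APC line than for the others. RNA was taken 72 h after plating. Each group was a single line plated in triplicate, so the p-values rest on the spread from plate to plate alone, and the effect of the construct cannot be told apart from other differences between the lines. The labels do not name the promoter that drives the construct.

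A keratin filament is built from pairs of an acidic type I and a basic type II keratin, so both types are needed in a cell. Simple epithelia such as the lining of the colon use mainly KRT8 with KRT18 and KRT19, stratified epithelia such as the epidermis use KRT5 with KRT14 in their basal layer, and the hair follicle has keratins of its own. In humans the genes lie in a pair of clusters, type II on chromosome 12 together with the type I gene KRT18, and the other type I genes on chromosome 17.

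Total counts over genes ranged from 16456736 to 19358023 per library, and the tested keratins took between 0.816% and 1.31% of them. APC, the gene carried by the construct, had 4.06 ± 0.181 RPKM in SW480, 3.90 ± 0.138 RPKM in CONTROL and 11.7 ± 0.308 RPKM in the APC line (SD, n = 3). Reads of the construct and of the cells' own APC gene were not told apart. RPKM, a read count scaled by transcript length and library size, is the level per length that the authors deposited, and all levels below are on that scale. The epithelial marker genes EPCAM and CDH1 were detected in every library, with means of 25.7, 21.7 and 195 RPKM for EPCAM and 1.34, 1.60 and 24.1 RPKM for CDH1 in SW480, CONTROL and the APC line. VIL1, a brush border gene, stood at 0.0992, 0.133 and 1.47 RPKM, and CDX2, an intestinal transcription factor gene, at 10.3, 9.24 and 5.54 RPKM. The other 4 colon markers examined, CDX1, LGALS4, CEACAM5 and GPA33, did not exceed 0.186 RPKM in any library. In bulk RNA, fewer cells of a kind and less RNA per cell cannot be told apart.

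Of the 47 keratins, 23 had enough reads to be tested (4 simple, 9 stratified, 5 hair shaft, 3 root sheath and 2 others) and 24 did not. Tests were edgeR quasi-likelihood tests with Benjamini-Hochberg adjustment over 14255 genes, and a gene was called where its adjusted p was under 0.05. A gene could pass the read filter through 1 line alone, so the counts that follow describe the tested members and not all keratins.

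In the APC line against SW480, 22 of the 23 tested keratins were called, 7 higher and 15 lower, beside a background of 72.5% of all genes called, 35.6% higher and 36.9% lower. The change was also over 2-fold for 15 of them, 6 higher and 9 lower, where the background was 19.1%, 7.91% higher and 11.1% lower. In the APC line against CONTROL, 21 were called, 10 higher and 11 lower (background 70.2%, 34.8% higher and 35.4% lower). Of these, 14 changed over 2-fold, 8 higher and 6 lower (background 18.3%, 8.63% higher and 9.69% lower). CONTROL also differed from SW480, with 19 called, 4 higher and 15 lower (background 50.0%, 25.3% higher and 24.7% lower), and 8 over 2-fold, 1 higher and 7 lower (background 4.90%, 1.68% higher and 3.22% lower). Calls were thus common among all genes, whereas calls over 2-fold took a larger share of the tested keratins than of all genes in each comparison. This is a description only. The keratins were chosen with earlier results of these data known, and some members share much of their sequence. The median size of the log2 fold change was 1.66, 1.44 and 0.55 for the tested keratins in these 3 comparisons, and 0.35, 0.34 and 0.19 for all genes tested.

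On the scale of the test, CPM after TMM scaling, the libraries of the groups did not overlap for 20 keratins between APC and SW480, 22 between APC and CONTROL and 18 between CONTROL and SW480, against a background of 73.1%, 73.4% and 56.6% of genes. The comparisons of APC with SW480 and with CONTROL share the APC libraries, and their values are therefore given side by side. In both, 6 keratins were higher (KRT6A, KRT7, KRT13, KRT15, KRT16 and KRT80; background 27.8%) and 11 were lower (KRT5, KRT6B, KRT6C, KRT10, KRT18, KRT23, KRT38, KRT39, KRT71, KRT74 and KRT81; background 28.0%). KRT19, KRT75 and KRT86 were called in opposite directions, lower than in SW480 and higher than in CONTROL. KRT8, KRT17 and KRT83 were called in 1 of these comparisons.

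**Figure D1:**
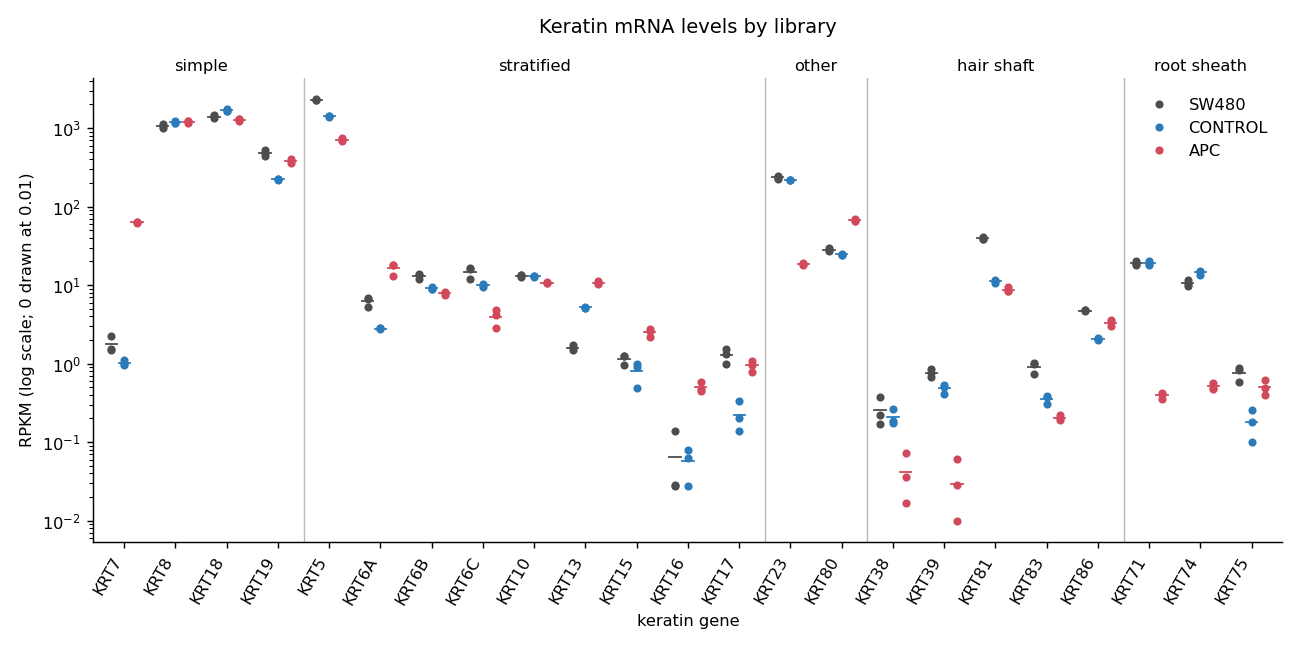
RPKM (log axis, 0 drawn at 0.01) of the 23 tested keratins in each library; points are libraries, short lines are group means (n = 3), and colours mark the 3 lines. KRT5, KRT8 and KRT18 lie above the other keratins in all lines, KRT7 is high only in the APC points, and KRT23, KRT71 and KRT74 are far lower there than in the other lines.

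The keratins of simple epithelia made up most of the keratin mRNA in each line. KRT8, the main type II keratin of simple epithelia, had 1135, 1009 and 1079 RPKM in the SW480 libraries, 1169, 1216 and 1158 RPKM in CONTROL and 1233, 1221 and 1169 RPKM in the APC line. The CONTROL and APC libraries overlapped and both lay above all SW480 libraries. Its log2 fold change was 0.20 ± 0.04 (SE) for APC against SW480 (edgeR adjusted p = 9.36e-05), 0.16 ± 0.04 for CONTROL against SW480 (edgeR adjusted p = 0.00257) and 0.04 ± 0.04 for APC against CONTROL (edgeR adjusted p = 0.371), so the last difference was not detectable.

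KRT18, the type I partner of KRT8, had 1458, 1336 and 1419 RPKM in SW480, 1648, 1728 and 1663 RPKM in CONTROL and 1225, 1312 and 1326 RPKM in the APC line. The CONTROL libraries were above all others. The APC libraries lay just below those of SW480 in RPKM, and the groups overlapped once counts were scaled for the test. It was 1.29-fold lower in the APC line than in CONTROL (log2 −0.37 ± 0.04, edgeR adjusted p = 7.42e-10) and 1.21-fold higher in CONTROL than in SW480. The call for APC against SW480, a log2 fold change of −0.09 ± 0.04 (edgeR adjusted p = 0.0391), was lost with DESeq2 (adjusted p = 0.0662) and without any 1 library except SW480 replicate 2 (edgeR adjusted p between 0.0566 and 0.211). The ratio of KRT8 to KRT18 was 0.765 ± 0.0120 in SW480, 0.703 ± 0.00655 in CONTROL and 0.940 ± 0.0630 in the APC line (SD, n = 3). The KRT8 transcript kept was 2150 bases long, and another of 1796 bases had 99.1% of its reads. With the shorter length KRT8 would stand higher per length in every line. Ratios, shares and sums that include KRT8 therefore depend on the transcript kept.

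KRT8 and KRT18 are neighbours on opposite strands, and in the GENCODE annotation 24.0% of the exon bases of KRT18 lay under an exon of KRT8. Whether reads were counted by strand is not given in the sources used here, so reads from that stretch cannot be assigned to 1 of the pair. Both genes also have many processed pseudogenes. Of the windows of 50 bases in their transcripts, 32.7% for KRT8 and 31.8% for KRT18 occurred in another annotated gene, mostly these pseudogenes.

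KRT19, the small type I keratin of simple epithelia that lacks a tail domain, had 519, 436 and 477 RPKM in SW480, 224, 227 and 219 RPKM in CONTROL and 405, 386 and 363 RPKM in the APC line. The 3 lines did not overlap, with SW480 highest and CONTROL lowest. It was 2.11-fold lower in CONTROL than in SW480 (log2 −1.08 ± 0.06, edgeR adjusted p = 1.36e-10). In the APC line it was 1.74-fold above CONTROL (0.80 ± 0.06, edgeR adjusted p = 1.74e-09) and 1.21-fold below SW480 (−0.28 ± 0.06, edgeR adjusted p = 0.00028).

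KRT7, a type II keratin of ducts and glands that is usually sparse in the colon, had the largest rise of all tested keratins in both APC comparisons. Its levels were 1.50, 1.53 and 2.24 RPKM in SW480, 1.12, 0.982 and 0.968 RPKM in CONTROL, and 63.3, 64.0 and 62.7 RPKM in the APC line. Every APC library was far above the others, and CONTROL was below SW480. The APC line was 36.7-fold above SW480 (log2 5.20 ± 0.08, edgeR adjusted p = 1.2e-33) and 62.2-fold above CONTROL (5.96 ± 0.09, edgeR adjusted p = 5.35e-34). CONTROL was 1.69-fold below SW480 (−0.76 ± 0.17, edgeR adjusted p = 0.000357). Per length KRT7 still reached only 0.0524 ± 0.00115 of the KRT8 level in the APC line (SD, n = 3), and 12.6% of its exon bases lay under the antisense gene KRT7-AS. KRT20, the type I keratin of differentiated intestinal epithelium, missed the read filter with 15 reads over 9 libraries and at most 5 in any of them.

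**Figure D2:**
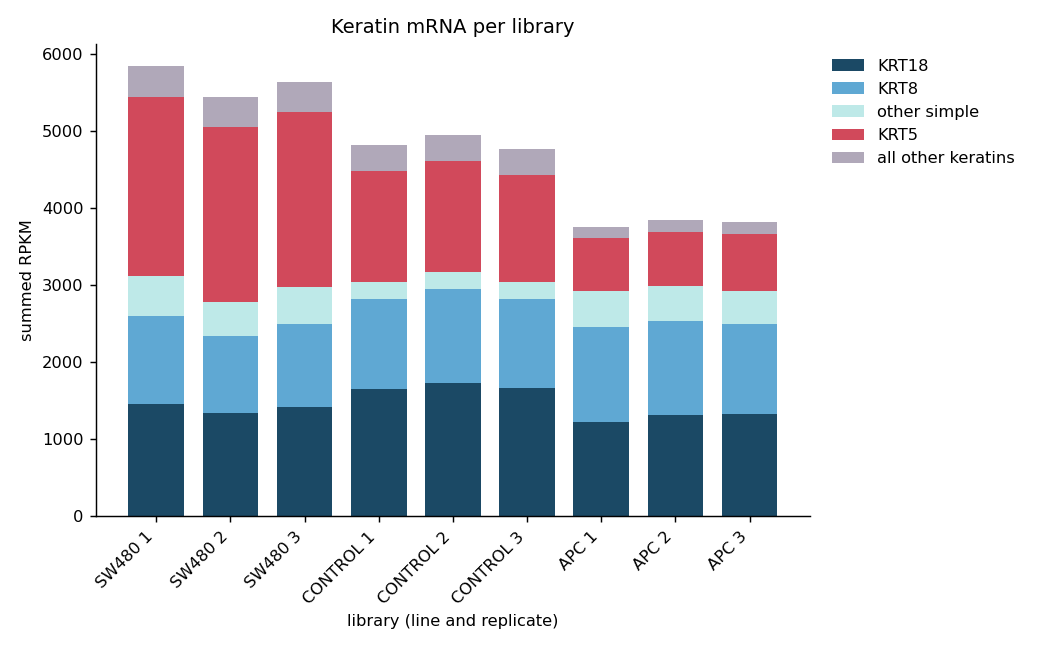
Summed RPKM of the keratins in each library, stacked as KRT18, KRT8, the other simple keratins, KRT5 and all remaining keratins. The total falls from a mean of 5639 in SW480 to 4842 in CONTROL and 3807 in the APC line, and the KRT5 segment falls with it.

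Summed over all 47 genes, keratin mRNA was 5639 ± 198 RPKM in SW480, 4842 ± 95.4 RPKM in CONTROL and 3807 ± 46.7 RPKM in the APC line (SD, n = 3), with no overlap between libraries of different lines. The sum of the simple keratins was 2958 ± 166, 3085 ± 75.4 and 2943 ± 34.4 RPKM in the same order, and these libraries overlapped. The simple keratins took 52.4%, 63.7% and 77.3% of the keratin sum, and the sum of the stratified keratins was 2338 ± 37.6, 1466 ± 29.3 and 764 ± 35.3 RPKM. Nearly all of that sum was KRT5, and without it the stratified keratins summed to 51.8 ± 4.50, 41.5 ± 0.752 and 53.6 ± 4.40 RPKM. Type II keratins exceeded type I keratins 1.64 ± 0.0494 times in SW480, 1.26 ± 0.0172 times in CONTROL and 1.22 ± 0.0231 times in the APC line. These sums were not tested, and those with KRT8 depend on the transcript length used for it.

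KRT5, the type II keratin of basal cells in stratified epithelia, was the most abundant keratin in SW480. It had 2325, 2272 and 2262 RPKM in SW480, 1438, 1444 and 1391 RPKM in CONTROL and 679, 710.1 and 742 RPKM in the APC line. The lines were clearly apart, in the order SW480, CONTROL and APC. By mean RPKM it ranked 5 among 20878 genes in SW480, 26 in CONTROL and 104 in the APC line. The APC line was 3.15-fold below SW480 (log2 −1.66 ± 0.04, edgeR adjusted p = 1.16e-27) and 1.99-fold below CONTROL (−0.99 ± 0.04, edgeR adjusted p = 2.16e-21), and CONTROL was 1.58-fold below SW480 (−0.66 ± 0.04, edgeR adjusted p = 1.36e-15). KRT5 went from 2.13 ± 0.106 times the KRT8 level in SW480 to 1.21 ± 0.0214 times in CONTROL and 0.589 ± 0.0425 times in the APC line (SD, n = 3).

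The other genes of the keratinocyte marker list were at or near 0. KRT14, its type I partner, had 22 reads over 9 libraries and at most 7 in any of them. TP63, the transcription factor gene of basal keratinocytes, was at 0 in all SW480 and CONTROL libraries and in 2 of the 3 APC libraries, with 0.0106 RPKM in the other. DSG3, a desmosomal cadherin gene, did not exceed 0.0577 RPKM in any library. COL17A1, a hemidesmosome collagen gene, went the other way from KRT5. It had 0 RPKM in every SW480 library and means of 0.0231 RPKM in CONTROL and 0.109 RPKM in the APC line. COL17A1 was called higher in all 3 comparisons (edgeR adjusted p = 1.1e-07, 0.000168 and 0.00557 for APC against SW480, APC against CONTROL and CONTROL against SW480). However, it passed the read filter through the APC line alone, and no CONTROL library exceeded 0.0339 RPKM. Its calls rest on few reads and follow in part from that filter.

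KRT6A, KRT6B and KRT6C are near-identical type II keratins, known from the hair follicle, the palm and sole and wounded epidermis. KRT6A had 6.88, 6.65 and 5.33 RPKM in SW480, 2.81, 2.73 and 2.86 RPKM in CONTROL and 13.1, 18.0 and 17.9 RPKM in the APC line. KRT6B had 13.8, 13.3 and 12.0 RPKM, 9.54, 8.91 and 8.82 RPKM, and 7.43, 8.22 and 8.03 RPKM in the same order. KRT6C had 16.5, 16.1 and 12.1 RPKM, 10.4, 10.0 and 9.57 RPKM, and 2.84, 4.82 and 4.11 RPKM. KRT6A was thus highest in the APC line, while KRT6B and KRT6C were lowest there, with no overlap of groups for any of the 3 genes.

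KRT6A was 2.65-fold above SW480 (log2 1.41 ± 0.13, edgeR adjusted p = 1.93e-06) and 5.86-fold above CONTROL (2.55 ± 0.15, edgeR adjusted p = 4.06e-08) in the APC line. KRT6C was 3.73-fold below SW480 (−1.90 ± 0.18, edgeR adjusted p = 3.35e-05) and 2.54-fold below CONTROL (−1.34 ± 0.19, edgeR adjusted p = 0.00042). KRT6B was 1.62-fold below SW480 (−0.69 ± 0.07, edgeR adjusted p = 2.37e-11). Its difference from CONTROL (−0.19 ± 0.07, edgeR adjusted p = 0.0136) was lost with DESeq2 (adjusted p = 0.0634), without CONTROL replicate 1 (edgeR adjusted p = 0.0769) and without APC replicate 1 (edgeR adjusted p = 0.0717). In CONTROL all 3 genes were below SW480, by 1.14, 0.50 and 0.55 on the log2 scale for KRT6A, KRT6B and KRT6C. That call for KRT6C (edgeR adjusted p = 0.0205) was lost when any CONTROL library or SW480 replicate 1 or 2 was left out (edgeR adjusted p between 0.0505 and 0.0726).

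The ratio of KRT6A to KRT6C was 0.424 ± 0.0146 in SW480, 0.280 ± 0.0158 in CONTROL and 4.24 ± 0.444 in the APC line (SD, n = 3), while the 3 genes together summed to 34.2 ± 4.21, 21.9 ± 0.791 and 28.2 ± 4.18 RPKM. In the GENCODE transcripts 39.1% of the 50-base windows of KRT6A, 47.1% of those of KRT6B and 53.6% of those of KRT6C occurred in another gene, mainly in each other. How reads that fit several genes were counted is not given in the sources used here, so the division of reads among these 3 genes is uncertain.

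KRT16 and KRT17 are type I keratins that pair with the KRT6 proteins in stressed and wounded epidermis. KRT16 was low, with 0.0281, 0.140 and 0.0277 RPKM in SW480, 0.0277, 0.0628 and 0.0799 RPKM in CONTROL and 0.581, 0.473 and 0.449 RPKM in the APC line. All APC libraries were above the others, which had at most 5 reads each, so KRT16 passed the read filter through the APC line alone. With 7 reads in SW480, 6 in CONTROL and 52 in the APC line, the ratio of read rates was 7.65 for APC to SW480 (exact 95% counting interval 3.46 to 20.0) and 8.86 for APC to CONTROL (3.81 to 25.2). The intervals, like those of other low genes below, cover counting error only. The fitted log2 fold changes were 2.91 ± 0.47 (edgeR adjusted p = 1.7e-06) and 3.08 ± 0.49 (edgeR adjusted p = 1.3e-06), and the first was 4.04 without SW480 replicate 2 (edgeR adjusted p = 8.44e-07). Its transcript shared 22.0% of its 50-base windows with other genes, among them its pseudogene KRT16P3 (13.0%), KRT14 (11.3%) and its pseudogene KRT16P1 (7.08%). KRT16P1 had 7, 3 and 3 reads in the APC libraries, KRT16P2 had 7, 5 and 9 and KRT16P3 had 7, 2 and 0, and none of the 3 had over 1 read in any other library.

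KRT17 had 1.53, 1.31 and 0.998 RPKM in SW480, 0.332, 0.137 and 0.203 RPKM in CONTROL and 1.09, 0.968 and 0.784 RPKM in the APC line. CONTROL was the lowest line, and SW480 and APC libraries overlapped. It was 5.48-fold lower in CONTROL than in SW480 (log2 −2.45 ± 0.30, edgeR adjusted p = 2.69e-08) and 4.16-fold above CONTROL in the APC line (2.06 ± 0.32, edgeR adjusted p = 9.65e-07). Between APC and SW480 it was not called (−0.40 ± 0.22, edgeR adjusted p = 0.0995), except without SW480 replicate 3 (−0.54, edgeR adjusted p = 0.0361).

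KRT13, the type I keratin of the upper layers of moist mucosa, rose in steps across the lines. It had 1.72, 1.57 and 1.50 RPKM in SW480, 5.18, 5.28 and 5.10 RPKM in CONTROL and 10.2, 11.2 and 10.7 RPKM in the APC line. In APC cells it was 6.84-fold above SW480 (log2 2.77 ± 0.10, edgeR adjusted p = 1.13e-22) and 2.08-fold above CONTROL (1.06 ± 0.08, edgeR adjusted p = 8.74e-14), and CONTROL was 3.29-fold above SW480 (1.72 ± 0.11, edgeR adjusted p = 2.25e-14). It was the single tested keratin called higher in all 3 comparisons, and 21.8% of its exon bases lay under an antisense gene. KRT4, the type II partner of KRT13 in such mucosa, missed the filter with 19 reads in SW480, 29 in CONTROL and 0 in the APC line. Against a floor of 3 reads per library it was at least 2.05-fold lower in the APC line than in SW480 and at least 3.15-fold lower than in CONTROL. KRT4 was named because it reached 11 reads in CONTROL replicate 1, so its distance from CONTROL follows in part from how it was picked.

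KRT15, a type I keratin of basal cells and of the hair follicle bulge, had 1.26, 1.25 and 0.958 RPKM in SW480, 0.491, 0.996 and 0.895 RPKM in CONTROL and 2.61, 2.21 and 2.80 RPKM in the APC line. KRT15 was 2.24-fold above SW480 (log2 1.16 ± 0.17, edgeR adjusted p = 3.18e-07) and 3.24-fold above CONTROL in the APC line (1.70 ± 0.19, edgeR adjusted p = 1.01e-09). SW480 and CONTROL libraries overlapped, and their call (−0.53 ± 0.22, edgeR adjusted p = 0.0438) was lost with DESeq2 (adjusted p = 0.113) and without CONTROL replicate 1 or SW480 replicate 1 or 2 (edgeR adjusted p between 0.112 and 0.332). Without CONTROL replicate 1 its log2 fold change was −0.27.

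KRT10, the type I keratin of the upper epidermis, changed little. Its levels were 13.4, 12.6 and 13.6 RPKM in SW480, 13.2, 13.0 and 12.8 RPKM in CONTROL and 10.6, 10.6 and 10.9 RPKM in the APC line. The APC line was 1.21-fold below both others (log2 −0.27 ± 0.06 in each comparison, edgeR adjusted p = 0.000122 against SW480 and 0.000142 against CONTROL), and CONTROL and SW480 did not differ detectably. The other 6 stratified keratins of the count table had between 1 and 48 reads in total and at most 11 in any library.

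**Figure D3:**
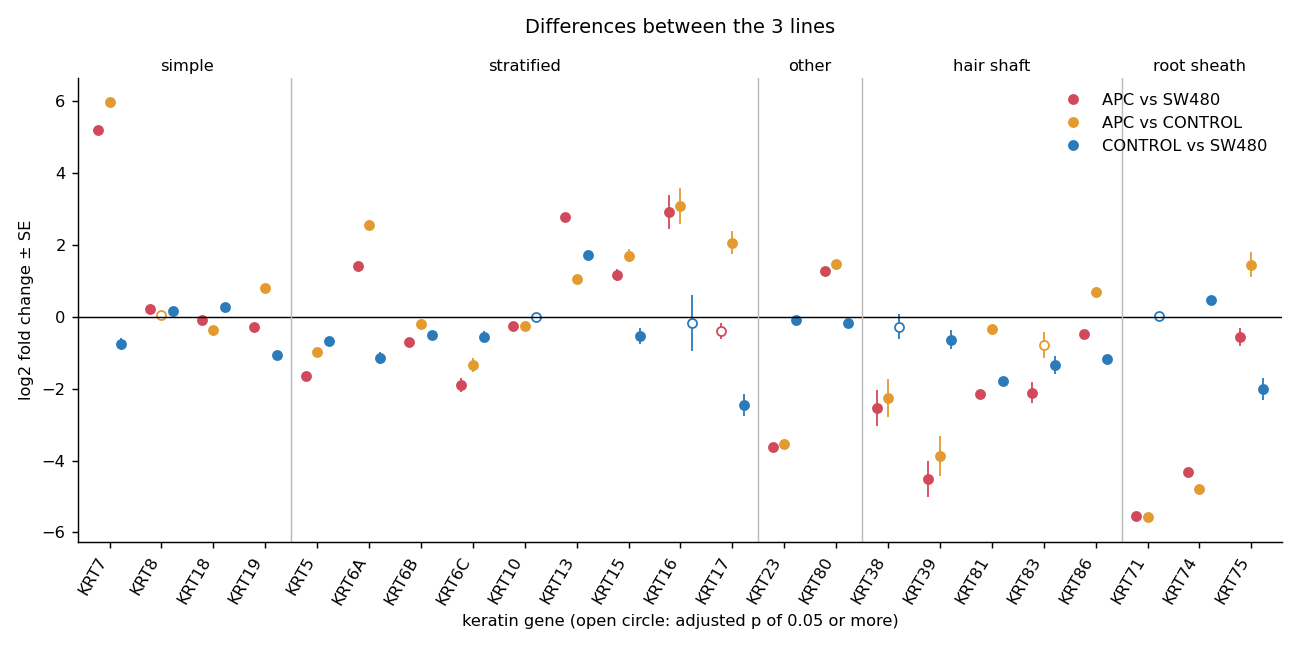
Log2 fold change with its SE for each tested keratin in the 3 comparisons, ordered by class; filled circles are called and open circles are not. KRT7 has the highest values of the APC comparisons and KRT71 the lowest, and the hair shaft keratins lie at or below 0 except KRT86 in APC against CONTROL.

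Among hair shaft keratins, KRT81, KRT83 and KRT86 are type II keratins of the hair cortex that lie side by side. KRT81 had 41.6, 38.5 and 38.4 RPKM in SW480, 11.2, 11.6 and 10.8 RPKM in CONTROL and 9.53, 8.46 and 8.32 RPKM in the APC line. It was 4.40-fold below SW480 in the APC line (log2 −2.14 ± 0.06, edgeR adjusted p = 4.04e-26) and 3.48-fold lower in CONTROL than in SW480 (−1.80 ± 0.06, edgeR adjusted p = 3.62e-23). In the APC line it was a further 1.26-fold below CONTROL (−0.34 ± 0.07, edgeR adjusted p = 5.98e-05). The larger step for this gene thus lay between the parent and the line with the empty vector.

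KRT86 had 4.76, 4.76 and 4.69 RPKM in SW480, 1.98, 2.14 and 2.08 RPKM in CONTROL and 3.00, 3.35 and 3.54 RPKM in the APC line. The lines did not overlap, and CONTROL was lowest. CONTROL was 2.26-fold below SW480 (log2 −1.18 ± 0.10, edgeR adjusted p = 2.61e-11), and the APC line was 1.41-fold below SW480 (−0.49 ± 0.10, edgeR adjusted p = 2.66e-05) and 1.61-fold above CONTROL (0.69 ± 0.11, edgeR adjusted p = 2.19e-06). KRT81 exceeded KRT86 8.34 ± 0.343 times in SW480, 5.43 ± 0.245 times in CONTROL and 2.68 ± 0.436 times in the APC line (SD, n = 3). Of the 50-base windows of the KRT81 transcript, 44.6% occurred in another gene, KRT86 first among them, so the division of reads between this pair is uncertain too.

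KRT83 had 1.03, 0.974 and 0.736 RPKM in SW480, 0.304, 0.374 and 0.390 RPKM in CONTROL and 0.203, 0.190 and 0.219 RPKM in the APC line. It was 4.33-fold below SW480 in the APC line (log2 −2.11 ± 0.29, edgeR adjusted p = 6.65e-08) and 2.52-fold lower in CONTROL than in SW480 (−1.33 ± 0.25, edgeR adjusted p = 4.22e-05). The APC libraries were all below CONTROL, but that difference just missed the threshold (−0.78 ± 0.36, edgeR adjusted p = 0.051). It passed without CONTROL replicate 1 (−0.89, edgeR adjusted p = 0.0487) and without SW480 replicate 3 (−0.78, edgeR adjusted p = 0.0484). The fit to the 6 libraries compared (edgeR adjusted p = 0.0491) and each limma fit (limma adjusted p between 0.0085 and 0.0374) also called it. The other alternatives did not.

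KRT38 and KRT39 are type I keratins of the hair shaft. KRT38 had 0.221, 0.373 and 0.168 RPKM in SW480, 0.184, 0.266 and 0.177 RPKM in CONTROL and 0.0167, 0.0716 and 0.0363 RPKM in the APC line. KRT39 had 0.769, 0.850 and 0.674 RPKM in SW480, 0.532, 0.509 and 0.405 RPKM in CONTROL and 0.0280, 0 and 0.0607 RPKM in the APC line. Both were scarce everywhere and lowest in the APC line, where they had 7 and 3 reads over all libraries. For KRT38 the ratio of read rates was 0.160 for APC to SW480 (exact 95% counting interval 0.0609 to 0.358) and 0.199 for APC to CONTROL (0.0746 to 0.453). Its fitted log2 fold changes were −2.54 ± 0.51 (edgeR adjusted p = 4.18e-05) and −2.26 ± 0.53 (edgeR adjusted p = 0.000353), and −3.14 and −2.86 without APC replicate 2, which held 4 of the 7 reads. For KRT39 the ratio of the read rates was 0.0381 for APC to SW480 (exact 95% counting interval 0.0077 to 0.115) and 0.0613 for APC to CONTROL (0.0122 to 0.190), where edgeR gave adjusted p = 6.7e-10 and 2e-07. Without APC replicate 3, which held 2 of the 3 reads, the fitted log2 fold changes went from −4.51 to −5.37 and from −3.86 to −4.72. KRT39 was also lower in CONTROL than in SW480 (−0.65 ± 0.26, edgeR adjusted p = 0.0404), a call that was lost with DESeq2 (adjusted p = 0.221) and without any 1 CONTROL library or SW480 replicate 1 or 2 (edgeR adjusted p between 0.0569 and 0.158).

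The promoters of both genes are shown because these 2, among the tested keratins with a promoter sequence, held the core of the TCF/LEF motif, the DNA element bound by the partners of beta-catenin. The sequences are the 250 bases before the start of each gene in RefSeq (GRCh38.p14), at chr17:41440984-41441233 for KRT38 and chr17:40966949-40967198 for KRT39, both on the minus strand, with CTTTGA and TATAAA in capitals on either strand (TCAAAG is CTTTGA on the other strand).
KRT38: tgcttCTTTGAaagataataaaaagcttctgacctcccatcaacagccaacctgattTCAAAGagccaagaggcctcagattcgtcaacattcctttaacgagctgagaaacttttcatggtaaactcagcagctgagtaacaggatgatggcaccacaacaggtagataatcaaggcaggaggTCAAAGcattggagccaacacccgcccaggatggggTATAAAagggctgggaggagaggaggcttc
KRT39: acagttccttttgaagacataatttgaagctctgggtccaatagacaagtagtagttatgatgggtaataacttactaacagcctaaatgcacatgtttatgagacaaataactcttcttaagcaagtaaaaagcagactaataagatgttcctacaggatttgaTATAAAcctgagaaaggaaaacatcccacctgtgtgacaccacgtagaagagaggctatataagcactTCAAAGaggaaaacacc
KRT38 held CTTTGA 3 times, 245, 193 and 66 bases before the start, and KRT39 once, 17 bases before it. RefSeq promoters of 8 of the 23 tested keratins were found in the table used, and 2 of these 8 held CTTTGA, beside 11.2% of all 35116 promoters. Over all keratins, tested or not, 28 promoters were found and 9 held CTTTGA. One of these was the promoter of KRT37, an untested hair shaft keratin, also 66 bases before the start. Apart from KRT38 and KRT39, the keratins with the motif had too few reads for a test. Whether the motif goes with a lower level in the APC line was therefore not tested. TGANTCA, the AP-1 motif, was in 0 of the 8 (6.57% of all promoters) and GGGCGG, the GC box, in 2, those of KRT38 and KRT75 (42.6%). TATAAA, the letters of the TATA box, was added after the other motifs had been searched. It was in 4 of the 8, those of KRT10, KRT38, KRT39 and KRT71 (10.7%). It lay 29, 30, 85 and 28 bases before the start in these genes, so in KRT39 it was much further away. Both strands were searched, and a match is a description of the letters only.

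Another 11 hair shaft keratins missed the filter, with 2 to 28 reads in total. Of these KRT84, a type II keratin, had 2 reads in SW480, 23 in CONTROL and 3 in the APC line. The ratio of CONTROL to SW480 was 11.6 (exact 95% counting interval 2.86 to 101) and that of APC to CONTROL was 0.133 (0.0256 to 0.441). KRT84 was named because it reached 11 reads in CONTROL replicate 3, so its high level in CONTROL follows in part from how it was picked. KRT81, KRT83 and KRT86 were highest in SW480.

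KRT71 and KRT74, type II keratins of the inner root sheath that sit next to each other, had the largest fold changes downward of the keratins above 1 RPKM in SW480. KRT71 had 18.5, 20.0 and 18.3 RPKM in SW480, 20.1, 18.3 and 18.6 RPKM in CONTROL and 0.357, 0.426 and 0.409 RPKM in the APC line. KRT74 had 9.72, 11.7 and 10.2 RPKM in SW480, 15.0, 14.8 and 13.6 RPKM in CONTROL and 0.562, 0.492 and 0.480 RPKM in the APC line. For both genes every APC library was far below all others. KRT71 had a log2 fold change of −5.54 ± 0.11 against SW480 (edgeR adjusted p = 1.61e-30) and −5.56 ± 0.11 against CONTROL (edgeR adjusted p = 1.55e-30). KRT74 was 20.0-fold below SW480 (−4.33 ± 0.12, edgeR adjusted p = 1.47e-26) and 27.9-fold below CONTROL (−4.80 ± 0.11, edgeR adjusted p = 1.59e-28).

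The lines without the construct differed in KRT74 but not detectably in KRT71. KRT74 was 1.39-fold higher in CONTROL than in SW480 (log2 0.48 ± 0.06, edgeR adjusted p = 9.35e-08), and KRT71 had 0.03 ± 0.05 (edgeR adjusted p = 0.713). In read counts KRT71 went from 869 to 942 per SW480 library to 17 to 19 per APC library. Shared sequence was small for this pair, at 2.93% of the 50-base windows of KRT71 and 1.57% of those of KRT74.

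The promoters of this pair are shown because the genes are neighbours and fell together. They are again the 250 bases before each start in RefSeq (GRCh38.p14), at chr12:52553146-52553395 for KRT71 and chr12:52573844-52574093 for KRT74, both on the minus strand, with capitals as above.
KRT71: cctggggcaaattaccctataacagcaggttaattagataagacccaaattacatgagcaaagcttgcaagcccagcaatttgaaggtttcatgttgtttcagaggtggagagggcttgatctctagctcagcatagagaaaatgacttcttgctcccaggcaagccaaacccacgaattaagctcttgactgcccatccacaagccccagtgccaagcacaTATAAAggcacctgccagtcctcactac
KRT74: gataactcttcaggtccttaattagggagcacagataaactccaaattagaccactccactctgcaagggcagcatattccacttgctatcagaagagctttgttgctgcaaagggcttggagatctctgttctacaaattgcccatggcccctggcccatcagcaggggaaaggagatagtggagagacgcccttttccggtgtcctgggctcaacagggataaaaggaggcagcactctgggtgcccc
KRT71 held TATAAA 28 bases before the start, and the other 3 motifs were not in its window. The KRT74 window held none of the 4 in exactly these letters.

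KRT75, a type II keratin of the companion layer of the hair follicle, had 0.818, 0.588 and 0.874 RPKM in SW480, 0.179, 0.101 and 0.258 RPKM in CONTROL and 0.402, 0.622 and 0.484 RPKM in the APC line. CONTROL was lowest, and SW480 and APC libraries overlapped. It was 4.04-fold lower in CONTROL than in SW480 (log2 −2.01 ± 0.31, edgeR adjusted p = 1.88e-06) and 2.72-fold above CONTROL in the APC line (1.44 ± 0.34, edgeR adjusted p = 0.000382). The call for APC against SW480 (−0.57 ± 0.25, edgeR adjusted p = 0.0398) was lost with DESeq2 (adjusted p = 0.186) and without SW480 replicate 1 or 3 or APC replicate 1 or 3 (edgeR adjusted p between 0.0948 and 0.162). The other 3 root sheath keratins had between 0 and 6 reads in total.

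KRT23, a type I keratin known to be expressed in some colorectal tumours, was the most abundant keratin that fell over 10-fold. It had 235, 227 and 248 RPKM in SW480, 219.7, 217 and 217 RPKM in CONTROL and 18.2, 18.6 and 19.2 RPKM in the APC line. The APC libraries were far below the rest, 12.4-fold against SW480 (log2 −3.63 ± 0.05, edgeR adjusted p = 6.32e-36) and 11.6-fold against CONTROL (−3.53 ± 0.05, edgeR adjusted p = 2.02e-35). Its rank among 20878 genes by mean RPKM went from 231 in SW480 and 266 in CONTROL to 3722. CONTROL and SW480 differed by −0.10 ± 0.04 (edgeR adjusted p = 0.0251), a call that was lost with DESeq2 (adjusted p = 0.0516) and without SW480 replicate 3 or any 1 CONTROL library (edgeR adjusted p between 0.0616 and 0.185). No 50-base window of KRT23 occurred in another gene.

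KRT80, a type II keratin of differentiating epithelial cells, moved the other way. Its levels were 29.9, 27.1 and 27.9 RPKM in SW480, 24.4, 24.5 and 24.8 RPKM in CONTROL and 70.0, 65.9 and 65.6 RPKM in the APC line. All APC libraries were above all others. Expression in the APC line was 2.43-fold above SW480 (log2 1.28 ± 0.04, edgeR adjusted p = 3.26e-24) and 2.76-fold above CONTROL (1.46 ± 0.04, edgeR adjusted p = 9.66e-26), and CONTROL was 1.14-fold below SW480 (−0.18 ± 0.04, edgeR adjusted p = 0.000539). The remaining 3 keratins of no class had at most 3 reads in any library.

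**Figure D4:**
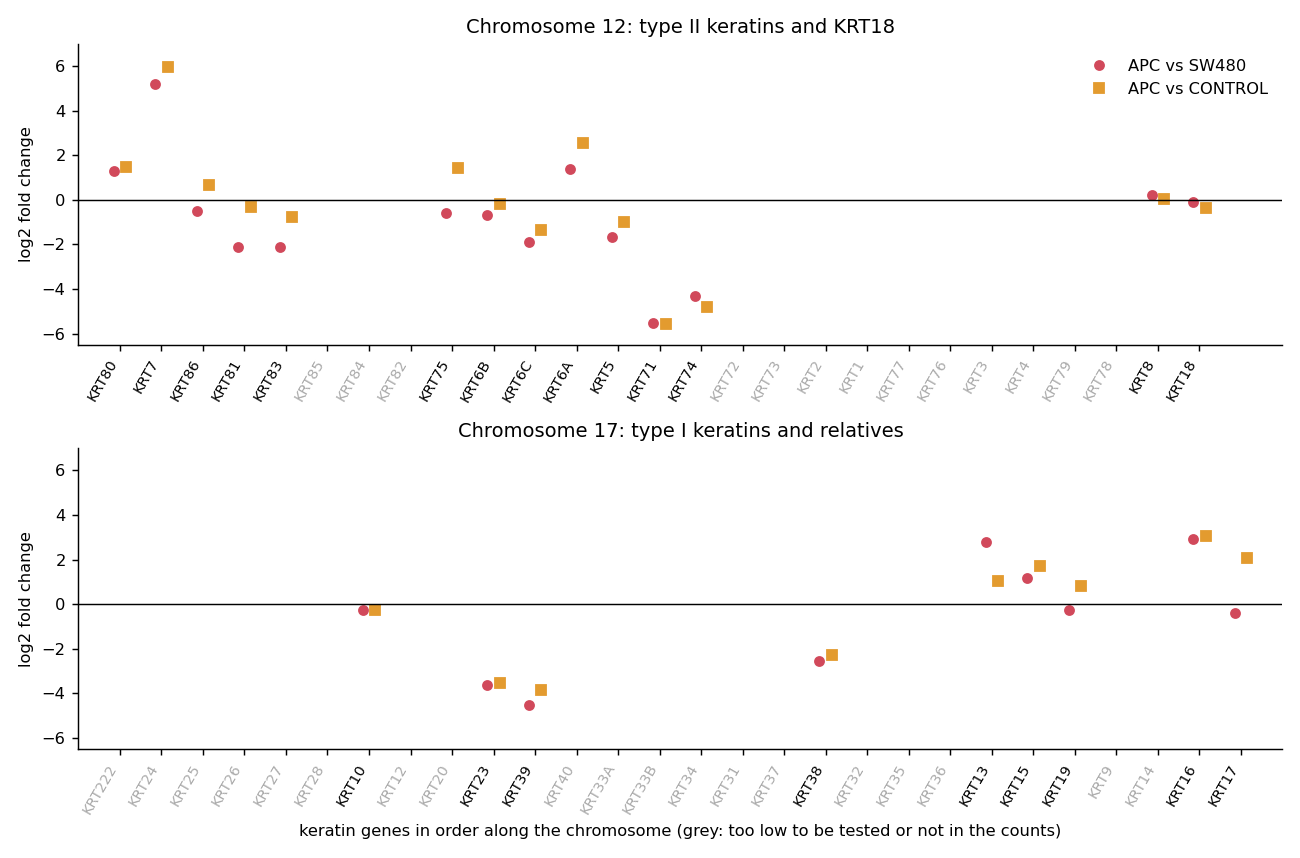
Log2 fold change of the APC line against SW480 and against CONTROL for keratin genes in their order along chromosomes 12 and 17 (RefSeq order, not to scale); names in grey were not tested. The values of KRT80 and KRT7, at the start of the chromosome 12 order, are above 0, those of KRT5, KRT71 and KRT74, further along, are below 0, and KRT6A stands above 0 between KRT6C and KRT5.

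In gene order, some close neighbours had opposite changes and others changed alike. On chromosome 12, KRT80 and KRT7 (higher in the APC line) come first and are followed by KRT86, KRT81 and KRT83. KRT75, KRT6B, KRT6C, KRT6A, KRT5, KRT71 and KRT74 follow one another with no other keratin between them. In that run KRT6A was higher in both APC comparisons while its neighbours KRT6C and KRT5 were lower, though the division of reads between KRT6A and KRT6C is uncertain. On chromosome 17, KRT23 and KRT39 stand next to each other and were both lower, and KRT13 and KRT15 stand next to each other and were both higher.

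Keratins are one group of intermediate filaments, and of 13 other filament genes listed, 8 were tested. In both APC comparisons 3 were higher (SYNM, LMNB1 and LMNB2) and 4 were lower, DES, VIM and LMNA among them, beside a background of 27.8% of all genes higher and 28.0% lower. VIM, the vimentin gene of mesenchymal cells and of many cultured lines, had 455 ± 16.9 RPKM in SW480, 407 ± 10.6 RPKM in CONTROL and 274 ± 2.07 RPKM in the APC line (SD, n = 3). It was 1.62-fold and 1.48-fold lower in the APC line than in SW480 and CONTROL (log2 −0.70 ± 0.04 and −0.56 ± 0.04, edgeR adjusted p = 9.27e-18 and 3.97e-15). DES, the muscle filament gene desmin, was low and stood at 2.38, 1.84 and 0.0521 RPKM.

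Of 15 genes for proteins that link keratins to desmosomes and other anchors, or that handle keratin filaments, all 15 were tested. In the APC line 9 were higher and 3 lower than in SW480 (background 35.6% and 36.9%), and 9 were higher and 5 lower than in CONTROL (background 34.8% and 35.4%). Higher in both were 9 (background 27.8%), among them PPL and EVPL, for the plaque proteins periplakin and envoplakin, and JUP, for plakoglobin. PPL went from 9.19 ± 0.456 RPKM in SW480 and 7.94 ± 0.575 RPKM in CONTROL to 21.8 ± 0.132 RPKM in the APC line (SD, n = 3), and JUP from 10.5 ± 1.10 and 8.26 ± 0.455 RPKM to 20.9 ± 0.611 RPKM. PKP1, TCHP and PKP2 were lower in both (background 28.0%), PKP1 by 1.54 and 1.52 on the log2 scale and PKP2 by 0.13 in each. DSP, the gene of desmoplakin, which ties keratin filaments to desmosomes, had 21.1, 18.9 and 19.6 RPKM and was not called in either APC comparison (edgeR adjusted p = 0.141 and 0.159).

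Among 16 genes of transcription and splicing factors known from epithelia, 11 were tested, and in both APC comparisons 8 were higher and 2 lower (background 27.8% and 28.0%). ESRP1, an epithelial splicing factor gene, had 0.320, 0.769 and 20.3 RPKM in SW480, CONTROL and the APC line, and ELF3 had 0.996, 1.04 and 15.4 RPKM. KLF4 was higher, at 1.42, 2.08 and 8.57 RPKM, and its relative KLF5 was lower, at 26.6, 25.5 and 9.52 RPKM. DLX3, a regulator known from hair follicle and epidermis, was lower, at 2.02, 1.71 and 0.199 RPKM. Of 14 genes of the cornified envelope, the end product of epidermal differentiation, 3 were tested, and 0 were called in the same direction in both APC comparisons, against the same background.

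Markers of other cell types were examined in the same libraries. PTPRC of the leukocyte markers was absent from the count table, as were COL3A1 and DCN of the fibroblast markers. These 3 had values in the RPKM table alone, listed at 0, where a 0 can also mean that the transcript was not counted. They are not part of the sums. The summed level of the other 5 leukocyte markers was 1.33 to 1.44 RPKM in SW480, 0.478 to 0.782 RPKM in CONTROL and 1.04 to 1.21 RPKM in the APC line. That of the other 4 fibroblast markers was 2.47 to 2.80, 1.93 to 2.37 and 1.74 to 1.91 RPKM. Most of the fibroblast sum was COL1A1, with means of 1.97, 1.64 and 1.80 RPKM, whereas PDGFRB went from 0.611 and 0.489 RPKM to 0.0117 RPKM in the APC line (edgeR adjusted p = 7.68e-16 against SW480 and 1.57e-14 against CONTROL). ITGAM of the leukocyte list went from 0.0101 and 0.00655 RPKM to 0.190 RPKM (edgeR adjusted p = 5.82e-08 and 3.54e-08). It passed the read filter through the APC line alone, with at most 0.0203 RPKM in any other library. LYZ of that list had 0.496, 0.157 and 0.152 RPKM and was called lower in APC against SW480 only (edgeR adjusted p = 0.000775). CD14 had 0.724, 0.347 and 0.766 RPKM and was called higher in APC against CONTROL only (edgeR adjusted p = 0.000587). Both were also lower in CONTROL than in SW480. The 4 endothelial markers summed to between 0.0711 and 0.184 RPKM over all libraries. The summed level of the 8 colon epithelium markers was 36.1 to 39.2 RPKM in SW480, 30.7 to 34.0 RPKM in CONTROL and 217 to 236 RPKM in the APC line. Most of that sum was EPCAM, a general epithelial gene, while CDX2 was lower in the APC line than in SW480 and in CONTROL (edgeR adjusted p = 3.07e-12 and 2.67e-10). The part of these markers in the differences between keratins was not tested.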

How the data were processed

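Polyadenylated RNA of 3 lines, 3 plates each, was sequenced (TruSeq, per the labels). The deposited files hold whole read counts per RefSeq transcript, not normalised, and RPKM made by the authors. The RPKM equalled the count over the deposited transcript length times 1 constant per library for 100% of values (relative tolerance 0.0001). Trimmomatic, TopHat and GATK are named with build hg19, per the submitters' processing notes. How reads were counted (tool, annotation release, strand) is not given in the sources used here.

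One transcript per gene was kept, the one with the highest total count. It was read for 47 keratins, 5 of which had more than 1 transcript. Counts were tested with edgeR 4.0.16 (R 4.3.3) in 1 robust quasi-likelihood fit of 9 libraries, after filterByExpr at a minimum count of 10 and TMM scaling. The SE is the log2 fold change over the square root of F. The script was tested on simulated data. Every tested keratin is named, as are untested ones with at least 10 reads in a library, and up to 3 genes per pathway list and direction by adjusted p, plus VIM and DSP. KRT14, KRT20, TP63, DSG3, COL17A1, COL1A1, PDGFRB, ITGAM, LYZ, CD14, the KRT16 pseudogenes and the colon markers at low levels are named besides, after their values were seen. The keratins and lists were chosen with earlier results of these data known. Shared sequence and exon overlap came from GENCODE v29 (GRCh38), where 22 of 23 transcripts matched, and gene order and promoters from RefSeq (GRCh38.p14). The alternatives tried were leaving out each of 9 libraries, a block for the replicate number, a test for a fold of at least 2 and fits to the 6 libraries compared. Others were transcripts summed per gene, no read filter, RLE scaling and DESeq2 1.42.0. Fits with limma 3.58.1 used log2 of the transcript RPKM plus 1 or plus 0.1, and log2 of the deposited gene-level RPKM plus 1. Sums and ratios of levels are descriptions and were not tested.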

Additional observations from a re-analysis of the deposited data

How the results depend on the processing

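Over 19 alternatives, the number of keratins called stayed within 1.5 times its value in each comparison, except with a test for a fold of at least 2, which called 14 and 11 keratins in the APC line (against SW480 and against CONTROL) and 4 between CONTROL and SW480. The share called was less stable, because some alternatives tested more keratins. In APC against SW480, 22 of 23 were called in the main fit and 27 of 46 without the read filter. Each limma fit called 28 of 46 there, and DESeq2 called 23 of 40. Leaving out each library in turn gave 20 to 22, 20 to 22 and 15 to 19 called in APC against SW480, APC against CONTROL and CONTROL against SW480. With the replicate number as a block the counts were 22, 21 and 19, the same as without it, and no call of a keratin changed. Same-numbered libraries of different lines had correlations of their deviations between −0.0889 and 0.159, so the numbers were not taken as pairs.

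Signs reversed in CONTROL against SW480 for 4 keratins that were not called there. KRT10 had log2 fold changes of 0.00458 with DESeq2, 0.00208 with RLE factors, 0.00900 without the read filter and 0.000393 with summed transcripts. It had 0.00324 and 0.0263 without SW480 replicates 1 and 3, and 0.00499 without CONTROL replicate 3. KRT16 had 0.955 without SW480 replicate 2 and 0.159 without CONTROL replicate 1, KRT38 had 0.104 without SW480 replicate 2, and KRT71 had −0.0155 without CONTROL replicate 1. Over the libraries left out, these values ranged from −0.0335 to 0.0263 for KRT10, −0.514 to 0.955 for KRT16, −0.494 to 0.104 for KRT38 and −0.0155 to 0.0638 for KRT71. The cause was not tested. Low counts limit KRT16, KRT38 and KRT39, which had at most 30 reads in any library.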
